A study of Mus musculus with 6 samples.

Results

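Immediate early response genes were examined as a set of 10 members, Fos, Fosb, Jun, Junb, Egr1, Egr2, Egr3, Ier2, Atf3 and Dusp1, taken by gene name from a deposited table of 22394 genes. All 10 were in the table, and 9 passed the filter on low values, Fosb being the exception. They were read in mRNA sequencing of whole kidneys from mouse embryos at E13.5. The 3 mutant libraries were Foxd1Cre;Ptch1 (flox/-), in which a floxed Ptch1 allele faces a null one, and the 3 control libraries were Ptch1 (flox/+) littermates, with a wild-type allele beside the floxed one and no Cre in their label. Foxd1 drives Cre in renal stromal progenitors, where loss of the receptor gene Ptch1 releases Hedgehog signalling. The mutants thus also differed in carrying Cre and in having a null Ptch1 allele in every cell. The design text speaks of 3 mutant mice, but no label ties a library to 1 embryo, so p-values measure the spread between these libraries, which may be technical.

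Immediate early genes are switched on within minutes of a growth factor, a stress or a mechanical stimulus, from transcription factors already present in the cell, so they need no new protein. MAP kinases, the serum response factor SRF with its ternary complex partners, and the cAMP-responsive factor CREB act on their promoters, and their mRNAs are removed quickly. Handling and warm dissociation of tissue are also known to induce them.

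Some features of the genes themselves were read first. Promoter sequence was at hand for 7 members (not Ier2, Egr1 and Egr3) in the RefSeq table (GRCm38.p6), and the 250 bases before each start were searched on both strands for 7 motifs. The half-site of the cAMP response element, TGACG, was present in 6 of 7 (Fos, Fosb, Junb, Egr2, Atf3 and Dusp1) and in 19.8% of the 27025 genes with a promoter in the table. The full element TGACGTCA, which holds the half-site on both strands, was in Dusp1 alone of these 7 (1.77% of genes). The Sp1 motif GGGCGG was in 6 of 7 (35.4% of genes). Of the 7 searched, the CArG box bound by SRF was in Egr2 alone (1.62%), TATAAA in Fos alone (14.3%), the Egr motif GCGNGGGCG in Fosb alone (5.33%) and the AP-1 motif TGANTCA in none of the 7 (7.82%). A match is a description of the letters only, and a site more than 250 bases before a start could not be seen. Egr2 was searched before several starts, which gave it more room for a match. The 150 bases before the start are shown for Fos, for Junb, an AP-1 subunit gene with 1 half-site, and for Dusp1, which holds the full element. Capitals mark TGACG on either strand and TATAAA. They lie at chr12:85473740-85473889 (plus strand), chr8:84978749-84978898 (minus strand) and chr17:26508473-26508622 (minus strand), written 5′ to 3′ on the strand of the gene.

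Fos: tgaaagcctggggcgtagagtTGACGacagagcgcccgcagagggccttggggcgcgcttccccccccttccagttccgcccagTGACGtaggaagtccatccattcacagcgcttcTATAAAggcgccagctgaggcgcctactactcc
Junb: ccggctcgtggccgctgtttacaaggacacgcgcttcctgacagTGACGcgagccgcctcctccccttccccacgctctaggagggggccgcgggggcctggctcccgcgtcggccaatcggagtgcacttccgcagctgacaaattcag
Dusp1: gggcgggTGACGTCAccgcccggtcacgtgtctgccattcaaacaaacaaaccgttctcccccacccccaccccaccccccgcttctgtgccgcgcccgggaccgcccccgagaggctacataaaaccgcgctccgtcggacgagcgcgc

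Fos holds a half-site 66 bases and another 129 bases before its start, with TATAAA 33 bases before it, whereas Junb holds 1 half-site, 106 bases before. As means over libraries, Fos was at 0.675 ± 0.118 and 0.907 ± 0.164 FPKM and Junb at 4.51 ± 0.394 and 5.77 ± 0.910 FPKM in controls and mutants (SD, n = 3 each). Dusp1, with the full element 143 bases before its start, was at 5.92 ± 0.503 and 6.33 ± 0.345 FPKM.

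Depth was 13261588 to 47847925 reads a library, lowest in mutant 2 and highest in mutant 3. Control 2 stood apart, with 0.367% of its reads from mitochondrially encoded genes against 1.21% to 2.12% in the other libraries. Sex was not balanced, since Xist was at 72.9 and 53.3 FPKM in controls 1 and 3 and at 0.0471 to 6.19 FPKM in the other 4 libraries. The Y-linked gene Ddx3y was at 0.0598 and 0.0177 FPKM in controls 1 and 3 and at 13.9 to 17.8 FPKM in the other 4. Mutant 3 had both Xist at 6.19 FPKM and Ddx3y at 13.9 FPKM. FPKM are reads scaled to gene length and library depth. All 12 listed kidney marker genes, among them Six2, Pax2 and Ret, passed the filter, and 0 were called in limma. Of these, 4 had an unadjusted limma p under 0.05 without overlap of the groups. Wt1 (log2 fold change -0.55), Eya1 (-0.46) and Pax2 (-0.41) were lower in mutants and Gata3 (0.78) higher. Sall1 (-0.23) was also lower without overlap, at an unadjusted limma p of 0.0703. Of all genes tested, 9.63% had an unadjusted limma p under 0.05, and 7.57% (mutant higher) and 9.09% (mutant lower) had no overlap. By the authors' deposited table the adjusted p was 0.0104 for Wt1 and 0.00351 for Gata3, and the part of these markers in the member levels was not tested. In whole kidneys, fewer cells of a type and less RNA per cell cannot be told apart.

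In controls the order by mean FPKM was Ier2, Jun, Egr1, Dusp1, Junb, Atf3, Fos, Egr3, Egr2 and Fosb. Egr3 and Egr2 overlapped in both groups. Egr1 and Dusp1 overlapped in controls, whereas in mutants every Egr1 value lay below every Dusp1 value, so that their order was reversed. Dusp1 and Junb, and Egr2 and Fosb, overlapped in mutants and not in controls. Of the genes tested, 5.9% had a higher mean FPKM than Ier2 and 14.4% a higher one than Jun, against 82.4% for Fos, 95.2% for Egr3 and 97.1% for Egr2.

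**Figure D1:**
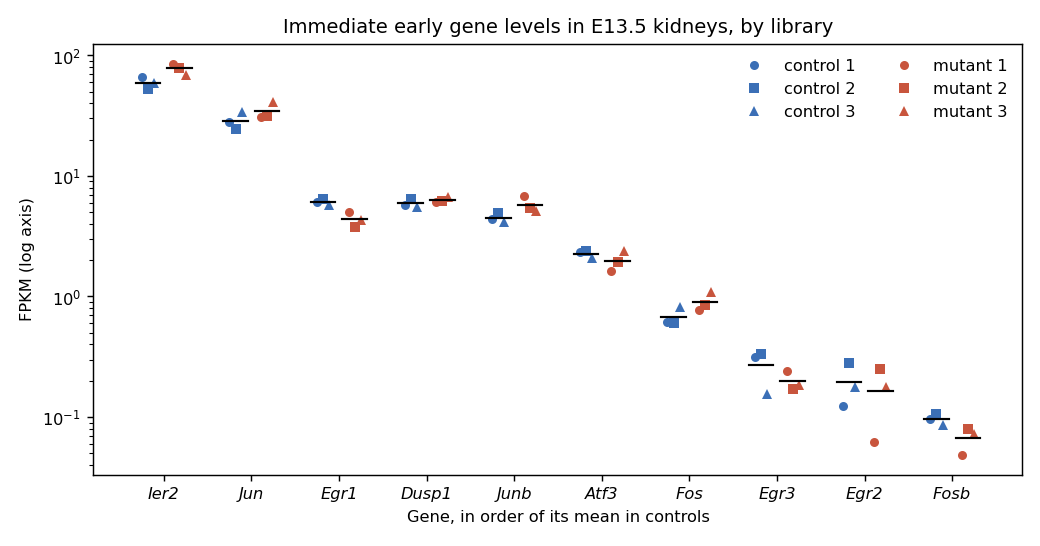
FPKM of each gene on a log axis, with 1 point per library (blue controls, red mutants, symbols for replicates 1 to 3) and a bar at each group mean. Ier2 and Jun lie between 24.5 and 85.7 FPKM and Egr2, Egr3 and Fosb at or below 0.334 FPKM, and the groups are fully apart for Ier2, Junb, Egr1 and Fosb.

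No member passed the test between genotypes. In limma over 16933 genes, 0 of 9 tested members had an adjusted p under 0.05, where 0.307% of all genes tested did. At an unadjusted limma p under 0.05 there were 2 of 9, Egr1 (lower) and Ier2 (higher), against 9.63% of all genes. The groups did not overlap for Ier2 and Junb, both higher in mutants, and for Egr1, lower in mutants. Over all genes tested the share was 7.57% for mutant higher and 9.09% for mutant lower. The median log2 fold change was 0.10 over the 9 members and -0.01 over all genes tested. By the adjusted p in the authors' deposited table, none (0) of the 8 members that had one was under 0.05, against 4.61% of its genes. At an unadjusted p under 0.05 in that table there were 2 of 10 members, against 2753 of all 22394 genes.

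The members of the Fos and Jun families encode the subunits of the AP-1 transcription factor. Fos, the classic partner of Jun in AP-1, was at 0.609, 0.606 and 0.811 FPKM in controls 1 to 3 and at 0.778, 0.851 and 1.09 FPKM in mutants 1 to 3. The groups overlapped, and control 3 lay above mutant 1. These values rest on 28, 32 and 42 reads in controls and 36, 24 and 110 reads in mutants, and the exact Poisson 95% interval of mutant 2 reaches from 0.545 to 1.27 FPKM. Such intervals cover counting error only. The fitted log2 fold change was 0.41 (SE 0.30, limma adjusted p = 0.631), with a 95% interval from -0.27 to 1.10.

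Fosb, a close relative of Fos, was the scarcest member. It had 8, 10 and 8 reads in controls and 4, 4 and 13 in mutants, that is 0.0969, 0.106 and 0.0861 FPKM against 0.0482, 0.0791 and 0.0719 FPKM. All mutants were below all controls, but the counting intervals overlapped (0.0418 to 0.191 FPKM in control 1 and 0.0131 to 0.123 FPKM in mutant 1). A difference in Fosb was not detectable at this depth.

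Jun, which forms AP-1 with Fos proteins or with itself, was far higher than Fos. It was at 27.9, 24.5 and 34.1 FPKM in controls and 30.9, 31.2 and 41.2 FPKM in mutants. Control 3 was above mutants 1 and 2, so the groups overlapped. The fitted difference was 0.26 on the log2 scale, with SE 0.17 and a 95% interval from -0.13 to 0.64 (limma adjusted p = 0.614). Jun is a gene of a single exon, and the antisense gene Junos overlaps it. The sources used here do not say whether counting used strand, so reads of Jun and Junos cannot be told apart. Junos was at 0.901 to 1.11 FPKM in controls and 1.55 to 1.79 FPKM in mutants, without overlap (limma adjusted p = 0.536).

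Junb, an AP-1 subunit that often opposes Jun, was higher in every mutant than in any control. It was at 4.43, 4.94 and 4.16 FPKM in controls and 6.80, 5.41 and 5.09 FPKM in mutants, so that control 2 and mutant 3 lay close together. The log2 fold change was 0.34 (SE 0.19, limma adjusted p = 0.566, 95% interval -0.08 to 0.77). The antisense gene Prdx2, which overlaps it in GENCODE M21, was at 371 to 454 FPKM in all 6 libraries. As the sources do not say whether counting used strand, reads of Junb and Prdx2 cannot be told apart either.

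Egr1, Egr2 and Egr3 encode related zinc finger transcription factors. Egr1, the best known of them, was lower in mutants. It was at 6.06, 6.40 and 5.75 FPKM in controls and 4.98, 3.77 and 4.35 FPKM in mutants. All 3 mutants lay below all 3 controls, and the control values lay close together. The mutant level was 0.72 times that of controls, with a log2 fold change of -0.48 (SE 0.15, 95% interval -0.82 to -0.14). This was an unadjusted limma p of 0.0107 and an adjusted p of 0.369. For Egr1 the authors' deposited table also held a log2 fold change of -0.48, with 0.253 as its adjusted p. An exact two-sided permutation test of 3 against 3 libraries cannot go below 0.1, the value it gave for Egr1, Ier2, Junb and Fosb.

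Egr2, known for its role in hindbrain and Schwann cells, and Egr3, known from muscle spindles and lymphocytes, were near the lower end of what the depth allows. Egr2 was at 0.124, 0.282 and 0.178 FPKM in controls and 0.0615, 0.252 and 0.176 FPKM in mutants. Egr3 was at 0.314, 0.334 and 0.155 FPKM in controls and 0.243, 0.171 and 0.186 FPKM in mutants. Both had overlapping groups, with 4 to 25 reads a library for Egr2 in mutants and 9 to 35 for Egr3. Both had a fitted log2 fold change of -0.35 (SE 0.57 and 0.41, limma adjusted p = 0.828 and 0.753), and the intervals reach from -1.65 to 0.96 for Egr2 and from -1.27 to 0.58 for Egr3. The sign for Egr2 turned without mutant 1, where it was 0.18.

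Ier2, a short nuclear protein induced by growth factors, was the most abundant member and the higher one in mutants with the smallest p. It was at 65.7, 52.4 and 58.7 FPKM in controls and 85.7, 79.4 and 68.8 FPKM in mutants. The groups did not overlap, though control 1 and mutant 3 lay close together. The mutant level was 1.32 times that of controls, with a log2 fold change of 0.40 (SE 0.14, 95% interval 0.09 to 0.71). The unadjusted limma p was 0.0164 and the adjusted p 0.420. The authors' deposited table gave 0.47 with an adjusted p of 0.132.

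Atf3, a stress-induced member of the ATF/CREB family, was at 2.33, 2.37 and 2.09 FPKM in controls and 1.63, 1.92 and 2.38 FPKM in mutants. Mutants 1 and 2 were below all controls, while mutant 3 was level with the highest of them. The log2 fold change was -0.21 (SE 0.23, limma adjusted p = 0.738, 95% interval -0.74 to 0.32). Dusp1, a phosphatase that switches MAP kinases off again, was the steadiest member, at 5.74, 6.48 and 5.52 FPKM in controls and 6.05, 6.24 and 6.72 FPKM in mutants. Its groups overlapped, and the fitted log2 difference was 0.10, with SE 0.15 (limma adjusted p = 0.806). The 95% interval, -0.24 to 0.44, leaves room for 0.85 to 1.36 times the control level.

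**Figure D2:**
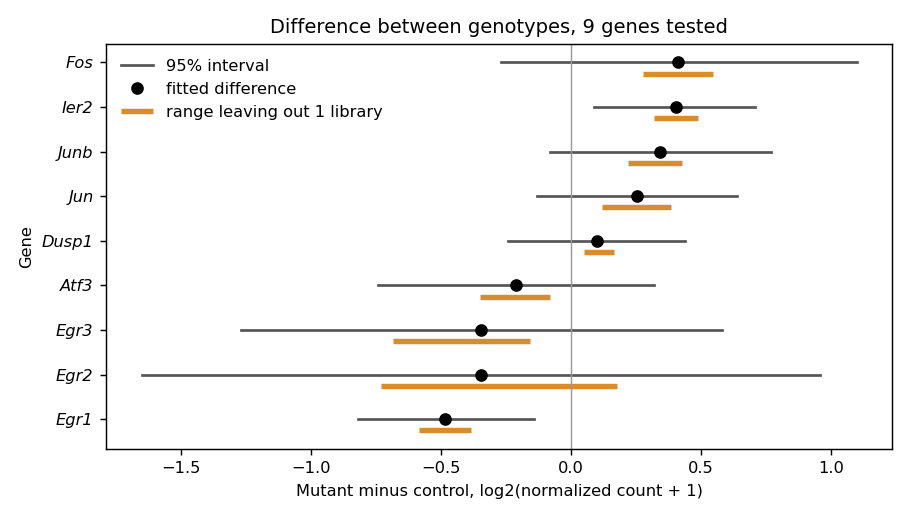
Fitted mutant minus control difference of the 9 tested genes (log2 of normalized count + 1, black point) with its 95% interval (grey line) and the range when 1 library is left out (orange bar). The intervals of Egr1 and Ier2 lie to one side of 0 before adjustment for the number of genes tested, and the orange bar crosses 0 for Egr2 only.

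The 10 genes did not form 1 block across libraries. Of 36 pairs of tested members, 18 had a positive Pearson r over the 6 libraries, and the median r was 0.004. These r values are descriptions over 6 points that share library depth and genotype. Mutant 3 was the highest library for Fos, Jun, Atf3 and Dusp1. Control 2 was the highest for Fosb, Egr1, Egr2 and Egr3 and the lowest for Fos, Jun and Ier2. Mutant 3 also had the highest summed level of 8 neuronal and chromaffin markers, 24.0 FPKM against 6.69 to 11.5 FPKM in controls and 12.97 and 9.24 FPKM in mutants 1 and 2. Of these markers 7 of 8 had positive fold changes, and Th and Dbh were at 2.45 and 4.17 FPKM in mutant 3. Their part in the member levels was not tested. The mean deviation of the 9 members from the control mean, on the log2 scale, was -0.03, 0.09 and -0.07 in controls and -0.08, 0.02 and 0.10 in mutants, with the groups interleaved.

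The spread between libraries of a group differed from member to member, both in size and against what read counting alone gives. The pooled within-group SD of log2(normalized count + 1) had a median of 0.20 over the 9 tested members and 0.24 over all genes tested. It was 0.10 for Dusp1, with 92.2% of genes tested more variable, and 0.77 for Egr2, with 6.94% more variable. In controls Fos had a coefficient of variation (CV) of 17.4%, where counting alone gives 17.2%. In Jun the CV was 16.8% in controls and 17.1% in mutants, where counting gives 2.14% and 2.01%. Among the scarce members, Egr2 had 41.4% against a counting CV of 26.8% in controls and 58.8% against 32.7% in mutants. Egr3 had 36.7% against 20% in controls and 19.0% against 24.2% in mutants. The spread of Jun and Ier2 lay well above counting error, while that of Fosb lay below it (10.1% against 34.0% in controls). Egr1 had a CV of 5.36% in controls and 13.9% in mutants. Of 20 values, 1 per gene and group, 15 were above the counting CV.

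**Figure D3:**
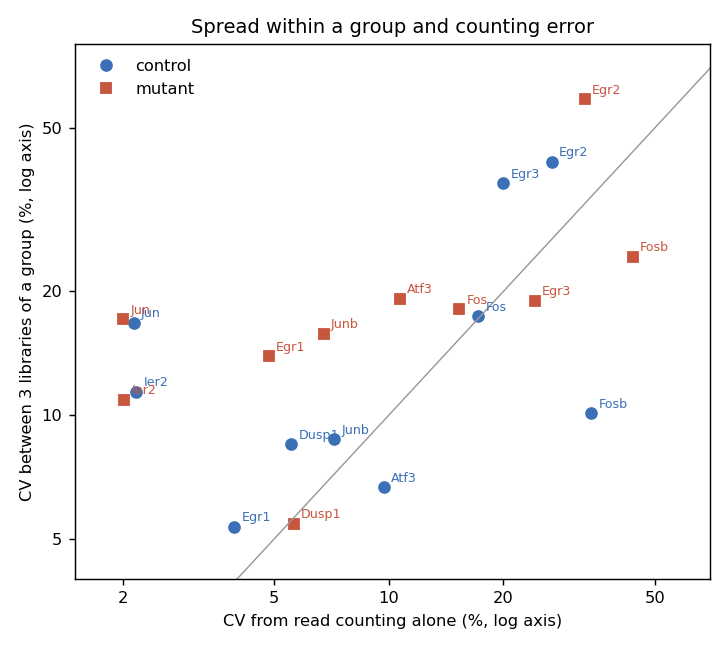
CV of normalized counts between the 3 libraries of a group (vertical, percent, log axis) against the CV expected from read counting alone (horizontal, percent, log axis), 1 point per gene and group. The line marks equality, and Jun and Ier2 sit furthest above it, at counting CVs near 2%.

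A wider set of 43 other immediate early genes, none of them members, was read beside them. Of these, 40 were tested and 0 were called in limma, with 27 positive and 13 negative fold changes. Unadjusted limma p-values under 0.05 were found for 5 of 40, all higher in mutants, against 9.63% of all genes tested in either direction, and the median log2 fold change was 0.15. The groups did not overlap for 9 higher and 1 lower, against 7.57% and 9.09% of all genes tested. Klf2, a flow-responsive factor of endothelium, was at 7.67, 9.18 and 9.08 FPKM in controls and 14.2, 14.2 and 16.3 FPKM in mutants. The difference was 0.79 on the log2 scale, with SE 0.14 (limma adjusted p = 0.0885, and 0.0466 without control 2). The run without control 2 called 149 of 16713 genes tested, against 52 of 16933 in the main fit. Klf2 was not read in the other runs with 1 library left out. Ctgf, a secreted matrix-associated protein and target of YAP and TGF-beta signalling, was at 2.76, 2.88 and 3.99 FPKM in controls and 6.26, 10.2 and 14.1 FPKM in mutants. The difference was 1.60 on the log2 scale, with SE 0.29 (limma adjusted p = 0.0898). These 2 genes had the largest positive differences of the set, while Nr4a3 (-0.85) and Dusp4 (-0.82) had negative ones larger in size than that of Klf2, with overlapping groups. Nr4a3 was near the floor, at 0.0558 to 0.0854 FPKM in controls and 0, 0.0915 and 0.113 FPKM in mutants 1 to 3. Its difference had an SE of 1.00, and the authors' deposited log2 fold change was -0.02. Both Klf2 and Ctgf had an adjusted p under 0.05 in the authors' deposited table (0.0317 and 1.48e-06).

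Nfkbia, the inhibitor of NF-kappa-B, averaged 18.2 ± 2.32 FPKM in controls against 25.1 ± 2.72 FPKM in mutants (SD, n = 3 each), and Ier5l at 28.0 ± 2.41 and 34.5 ± 1.97 FPKM. Both had groups that did not overlap, with limma adjusted p of 0.384 and 0.485. The endothelial markers moved with Klf2. All 12 listed had positive fold changes, and 4 were called in limma, where 0.307% of all genes tested were called in either direction. By the authors' deposited adjusted p, 9 of the 12 were under 0.05, against 4.61% of the genes that had one. The summed level of these markers was 130 to 141 FPKM in controls and 241 to 302 FPKM in mutants. Their part in the Klf2 level was not tested. The next 3 genes were picked out after their values were seen. Dusp4, a nuclear MAP kinase phosphatase, was called lower in the authors' deposited table (adjusted p = 0.00922), with 11.2 FPKM in control 2 and 2.13 to 3.40 FPKM in the other 5 libraries. Btg2, an antiproliferative gene, was the 1 lower gene without overlap, at 9.45 to 11.1 FPKM in controls and 8.67 to 9.32 FPKM in mutants. Jund, the AP-1 subunit least dependent on stimulation, was at 198 to 204 FPKM in controls and 181 to 258 FPKM in mutants, above every member.

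**Figure D4:**
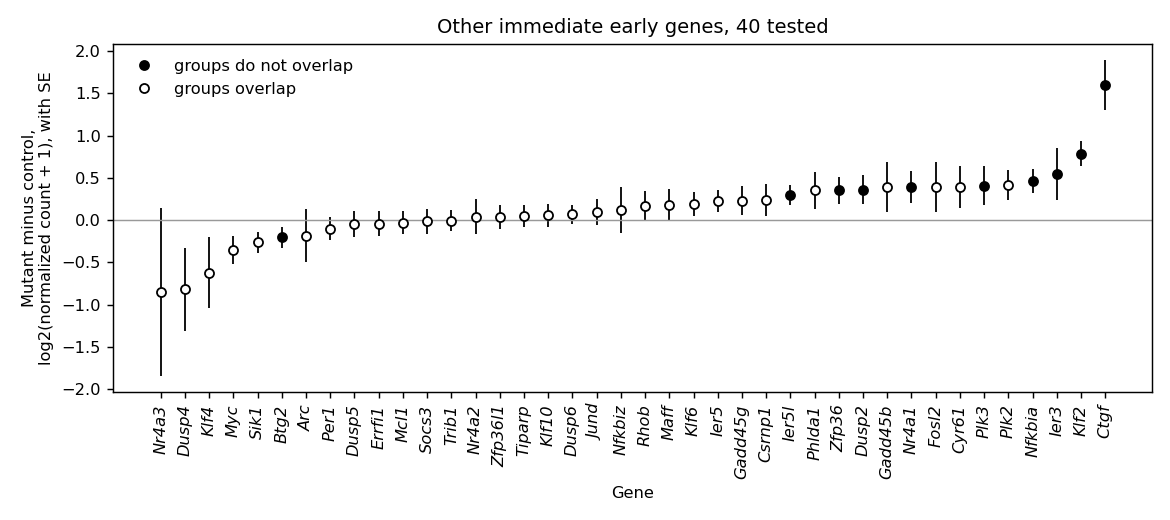
Mutant minus control difference (log2 of normalized count + 1, with its SE) of the 40 tested genes of the wider set, ordered by size. Filled points are genes whose groups do not overlap, and Klf2 (0.79) and Ctgf (1.60) lie to the right of all others.

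Among the genes that induce this response, 23 listed kinases and factors of the MAP kinase, SRF and CREB routes were all tested, 0 were called in limma and the median log2 fold change was -0.12. At an unadjusted limma p under 0.05 there were 3 of 23, against 9.63% of all genes tested. Elk3, a ternary complex factor that partners SRF, was at 24.4, 19.8 and 22.7 FPKM in controls and 26.3, 29.5 and 34.8 FPKM in mutants (log2 fold change 0.43, limma adjusted p = 0.404). The authors' deposited table gave Elk3 an adjusted p of 0.0427. Its relative Elk4 was at 8.45 ± 1.43 and 10.6 ± 0.358 FPKM, and the MAP kinase-activated kinase gene Rps6ka3 at 16.6 ± 4.60 and 11.8 ± 1.30 FPKM (SD, n = 3 each). Of 11 listed Egr corepressors and AP-1 partners, 10 were tested and 0 called, with 4 positive and 6 negative fold changes and a median of -0.04. The 4 positive ones had an unadjusted limma p under 0.05, against 9.63% of all genes tested in either direction. Of these 4, Maf (log2 fold change 0.60, limma adjusted p = 0.453) alone was called in the authors' deposited table, with an adjusted p of 0.00633. Batf3, which pairs with Jun proteins, was at 9.44 ± 1.58 and 14.6 ± 1.29 FPKM, and Jdp2, a repressor at AP-1 sites, at 6.59 ± 0.933 and 9.57 ± 0.678 FPKM (limma adjusted p = 0.312 and 0.372). The 7 listed factors that bind AU-rich mRNA elements had 0 called and 0 at an unadjusted limma p under 0.05, with a median of -0.10.

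The gene whose values over the 6 libraries were most like the mean standardized level of the 9 members was Klf6, itself an immediate early gene (Pearson r = 0.972 over 6 libraries, among 12169 candidate genes). It was at 9.04, 10.6 and 9.12 FPKM in controls and 10.1, 10.2 and 12.7 FPKM in mutants. Acer2 (0.960), Asah2 (0.959), Ripor2 (0.957) and Fam43a (0.949) came next, and Klf6 was the only one of the leading 10 on any list used here. Each of the leading 10 was highest in mutant 3, where the member profile they were picked to match was also highest (0.46). This follows from how they were picked, and the best of 12169 genes over 6 libraries can reach a high r by selection alone. The members themselves had a median pairwise r of 0.004.

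A further shared feature is compactness. In GENCODE M21 (GRCm38) the longest coding transcript of the members has a median of 2 exons against 7 over 20930 protein-coding genes, and Jun, Junb and Ier2 have 1. The pentamer ATTTA, the core of AU-rich elements that speed mRNA decay, occurred in the 3′ untranslated region of 9 of 10 members (64.7% of genes), 3 or more times in 6 of 10 (35.2% of genes). The median was 2.59 copies per 1000 bases, against 1.22 over all genes. Dusp1 had 4 copies in 690 bases and Fos 4 in 815 bases, while Ier2, the most abundant member, had 0 in 755 bases. Copies did not follow the level, since Jun, next to Ier2 in level, had 4 in 1233 bases and Fosb, the scarcest member, 1 in 2145 bases. Ier2 (84661331 to 84662852) and Junb (84974484 to 84978718), the 2 tested members higher in mutants without overlap, are both on chromosome 8 of GRCm38. This was picked out after their values were seen, and a part of their place in their levels was not tested.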

How the data were processed

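The submitters' processing notes name build mm10 and, without role or order, HTSeq 0.6.1p2, STAR 2.6.0c, Trim Galore and DESeq2. The authors deposited 1 table with FPKM for 6 libraries, the mean normalized signal per gene, the log2 fold change and its standard error, the Wald score and p-values. The unit FPKM was read from the values. Deposited FPKM times the ratio of mean signal to mean FPKM gave normalized counts, and dividing these by the smallest value of a library gave whole reads for 100% of 134364 values (tolerance 1e-06 reads). Depth was 13261588 to 47847925 reads.

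Genes reaching 10 normalized counts in at least 3 libraries (16933) were tested on log2(normalized count + 1) in limma 3.58.1 (R 4.3.3, trend on mean level, genotype as the sole term). Benjamini-Hochberg adjusted p under 0.05 was the call. A fold change on this scale understates that of low genes. The script was tested on simulated data first. Members and lists were chosen with earlier results of these data known. Named genes are all members, all heat shock genes, up to 4 genes per other list by smallest p, and the 10 most correlated genes (mean normalized count 50 or more, predicted genes left out). The lists of macrophage, skeletal muscle, smooth muscle and erythroid markers were computed as well. Alternatives were other pseudocounts, filters and scales, quantile normalization, library weights, limma-voom on the recovered reads, the replicate number as a block and each library left out. The deposited Dusp1 identifier is an earlier version than that of GENCODE M21. How reads of overlapping genes were counted is not stated in the sources used.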

Additional observations from a re-analysis of the deposited data

How the results depend on the processing

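No member had an adjusted p under 0.05 in any of the 14 alternatives. The lowest was 0.0863, for Egr1 with library weights, where Ier2 had 0.170. Of 123 values of the 9 tested members under these alternatives, 121 kept their sign. The exceptions were both Egr2, at 0.004 with library weights and, when 1 library was left out, between -0.73 and 0.18. Egr1 ranged from -0.58 to -0.38 and Ier2 from 0.32 to 0.49 when 1 library was left out. Over all genes, 33 were called on log2(FPKM + 1), 380 with library weights, whose fit stopped short of its tolerance, and 6 to 149 with 1 library left out, against 52. Of the 6 runs with 1 library left out, the one without control 2 gave 149. With the replicate block 17 genes and 0 members were called. Same-numbered libraries had correlations of their deviations of 0.001, -0.098 and 0.309, so the numbers were not taken to pair them. Fosb was fitted only with no filter, at -0.49 (limma adjusted p = 0.720), and Fos, Egr2 and Egr3 had none on FPKM of at least 1. Depth limits Fosb, Egr2 and Egr3, which had 4 to 35 reads a library.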

Other observations

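Of 9 heat shock genes, which protein-damaging stress induces through a different route, 0 were called in limma. Their log2 fold changes were negative for 8 of 9, with a median of -0.27, where all genes tested had -0.01. An unadjusted limma p under 0.05 was found for 4 (9.63% of all genes tested), and the same 4 had groups that did not overlap (9.09% of all genes tested, mutant lower). These were the cytosolic chaperone genes Hsp90aa1 (278 ± 14.1 and 195 ± 27.1 FPKM), Hspa8 (801 ± 77.6 and 565 ± 48.8 FPKM) and Hsph1 (31.9 ± 2.20 and 22.7 ± 5.23 FPKM) and the mitochondrial chaperonin gene Hspd1 (246 ± 24.0 and 178 ± 24.2 FPKM), with SD over n = 3 libraries in controls and mutants. In the authors' deposited table Hspd1 alone had an adjusted p under 0.05, at 0.0493. The rest of the list had overlapping groups. Their log2 fold changes were -0.23 for Hspa1a, -0.27 for Hspa1b, -0.17 for Dnajb1, -0.18 for Hspe1 and 0.18 for Hspb1. Without control 2 the median was -0.27 with 8 of 9 negative.

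Among 9 genes of the integrated stress response, with 0 called and a median of -0.10, the amino acid synthesis genes Psat1 (60.7 ± 16.6 and 40.4 ± 2.27 FPKM) and Asns (11.6, 14.1 and 13.7 FPKM in controls, 8.63, 10.9 and 10.5 FPKM in mutants) were lower in mutants without overlap (limma adjusted p = 0.441 and 0.485), and the authors' deposited table gave Psat1 an adjusted p of 0.00184. Ddit3 (7.76 ± 1.58 and 9.78 ± 1.42 FPKM) and Trib3 (0.642 ± 0.153 and 0.894 ± 0.149 FPKM) had overlapping groups.

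Marker lists of other cells gave these values in controls and mutants. The summed level of 10 macrophage markers was 23.4 to 27.7 and 30.4 to 48.4 FPKM, that of 7 tested skeletal muscle markers 37.9 to 63.7 and 15.5 to 21.2 FPKM, and that of 6 smooth muscle markers 110 to 134 and 174 to 224 FPKM. All 7 tested skeletal muscle markers had negative fold changes (median log2 -2.76), and 4 were called lower in limma, where 0.307% of all genes tested were called. Tnnt1, at 14.5 and 12.9 FPKM, made up most of the mutant sum, whereas Acta1 averaged 9.34 and 0.208 FPKM and Myh3 5.44 and 0.204 FPKM. The 7 erythroid markers summed to 3572 to 4324 and 2661 to 4893 FPKM, with 2 positive and 5 negative fold changes. Of these, 1 was called in limma, Hba-a2, which was lower (log2 fold change -5.13, limma adjusted p = 0.0147). It was at 62.9 to 121 FPKM in controls and 1.35 to 7.55 FPKM in mutants. Its authors' deposited adjusted p was 8.71e-05. Hba-a1 had a positive fold change (0.40) with overlapping groups. All 12 tested mitochondrially encoded genes had positive fold changes (median 0.68), against 6 of 12 (median -0.08) without control 2.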
